A study of Mus musculus with 8 samples.

Results

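The genes described here are 10 members of the Bcl2 family of survival and death genes: Bcl2, Bcl2l1, Mcl1, Bcl2l2, Bax, Bak1, Bcl2l11, Bad, Bid and Bbc3. Members were chosen by gene symbol, through the array annotation. It mapped 27 of 22626 probe sets to 9 of the 10 genes, and mapped none to Bax, which was not analysed here. Lymph node cells of the inbred mouse strain B10.BR were sorted by flow cytometry, and their RNA was read on Affymetrix mouse arrays. The groups were naive B10.BR mice (3 arrays), B10.BR mice 7 days after immunization (3 arrays) and B10.BR mice 28 days after immunization (2 arrays). No gene alteration is named for any group. The labels name neither the immunogen, the sorted cells, the age nor the sex of the mice, and they do not say whether arrays stand for separate animals. P-values therefore measure the spread between these arrays, which may be technical.

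Proteins of the Bcl2 family decide whether the outer membrane of the mitochondrion stays sealed. Survival members such as Bcl2, Bcl-xL (from Bcl2l1), Mcl1 and Bcl-w (from Bcl2l2) hold the pore-forming members Bax and Bak1 in check. BH3-only members such as Bim (from Bcl2l11), Bad, Bid and Puma (from Bbc3) bind the survival members, and some also act on Bax and Bak1. In T cells Bim is the main trigger of death when a response contracts, and Bcl2, sustained by interleukin 7, is its main counterweight in naive and memory cells.

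Each value below is the log2 of a ratio, formed per probe set against its median on the 8 arrays or, for dim probe sets, against a shared floor. A value of 0 is therefore the median or the floor, and levels of different genes or probe sets cannot be set against each other. Folds understate the change of RNA near background. Of the 27 probe sets, 17 reached a ratio of 1 on at least 2 arrays and were tested with limma, over at least 1 probe set of each of the 9 genes. The other 10 lay below the floor on most arrays: 3 each of Bcl2l1 and Bcl2l2, 2 of Bcl2l11, and 1 each of Bak1 and Bid. Bak1 probe set 1418991_at passed this filter on exactly 2 arrays, both of day 7, so it could pass only through the group in which it was highest. Bcl2l2 probe set 1430454_x_at, with 1 such array (0.51 on day 7 replicate 2), did not pass.

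None of the 17 member probe sets passed limma's test at an adjusted p under 0.05 in any comparison. At day 7 against naive the count was 0, where 1.17% of the 13042 probe sets tested were called; 2 members had an unadjusted p under 0.05, both of Bcl2l11 and both higher at day 7 (background 15.5%). At day 28 against naive the count was 0 (background 0.322%), and 0 had an unadjusted p under 0.05 (background 6.34%). At day 28 against day 7 the count was 0 (background 1.30%); 3 had an unadjusted p under 0.05, all lower at day 28: 2 of Bcl2l11 and 1 of Bad (background 16.5%). The largest differences were those of Bcl2l11, and they divided the arrays in a way that crossed the groups. Bcl2 and Bbc3 each had a single high array, the 6 probe sets of Mcl1 differed among themselves, and Bad had the smallest adjusted p.

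**Figure D1:**
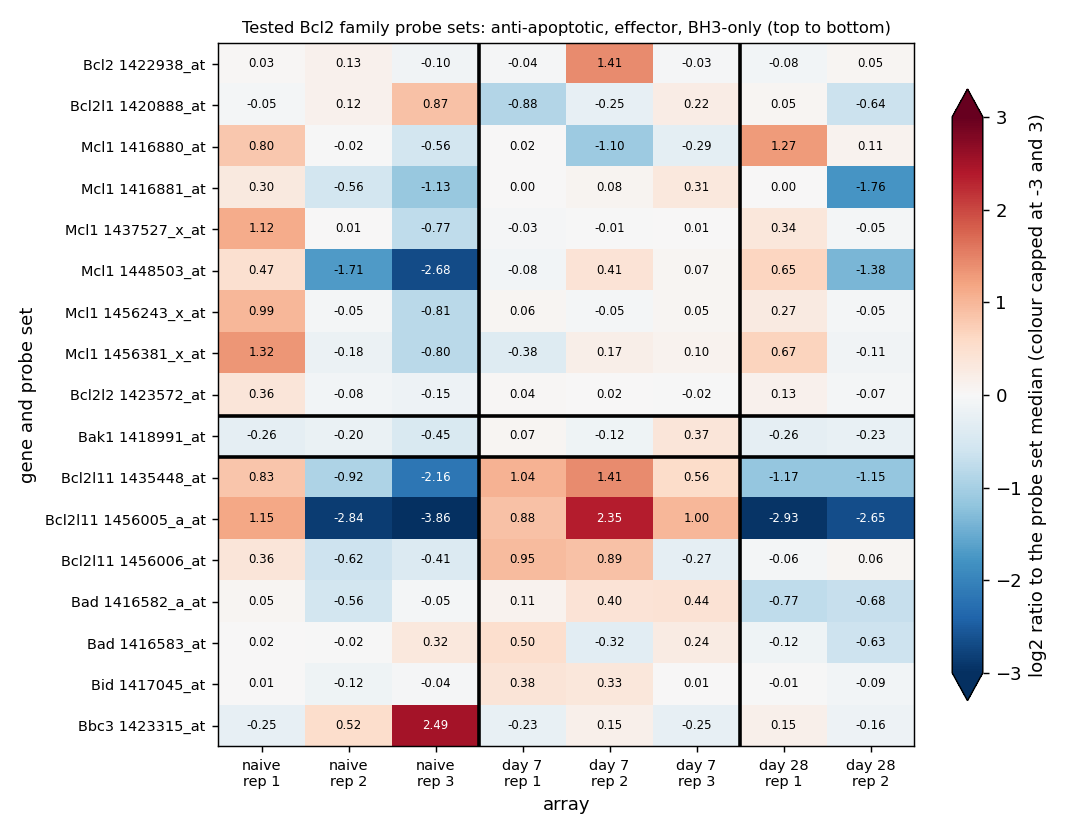
Log2 ratio of each tested member probe set (rows, by role) on each of the 8 arrays (columns, by stage), with the value printed in each cell. Probe set 1456005_a_at of Bcl2l11 runs from -3.86 on naive replicate 3 to 2.35 on day 7 replicate 2, whereas Bcl2l2 stays between -0.15 and 0.36.

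The arrays did not divide by stage alone. The median log2 ratio of the 18 hybridisation spike-in probe sets, which read bacterial and phage transcripts added to every sample, was low on naive replicate 1 (-1.16) and on all day 7 arrays (-1.70 to -1.03). It was high on naive replicate 2 (0.85), on naive replicate 3 (0.66) and on both day 28 arrays (1.41 and 0.64). These sets of 4 low and 4 high spike-in arrays are named below beside genes that follow them. For Gapdh, the 3' minus the 5' log2 ratio, which reads RNA quality and can be compared only between arrays, ran from -1.18 to 1.17 at day 7, was -1.09 and 0.02 at day 28, and ran from 0.17 to 0.57 on naive arrays. Markers of other cells also moved with the groups. Of 8 B cell markers tested, 6 rose at day 28 against naive and 7 at day 28 against day 7; their median log2 ratio was 5.25 and 3.80 at day 28, against -1.01 to -0.14 on naive arrays and -0.27 to 0.08 at day 7. Of 2 CD8 T cell markers, 1 rose at day 28 against naive and 2 at day 28 against day 7. Of 6 naive T cell markers, 1 fell at day 7 and 1 at day 28, each against naive, and the same gene, Igfbp4, rose at day 28 against day 7. Follicular helper T cell markers (5 of 6) and proliferation genes (6 of 7) rose at day 7 against naive, as did 1 of 2 NK cell markers. At day 28 against day 7, 4 of the 7 proliferation genes and 1 of the 6 follicular helper markers fell. Some of these markers passed the filter only through the group in which they were high, so the filter partly set these counts. Blnk and Cd8b1 reached a ratio of 1 on day 28 arrays alone, and Il21 on day 7 arrays alone. Bcl6, Pdcd1, Icos, Nkg7 and the 7 proliferation genes did not reach it on 2 arrays outside day 7. Of the other lists, 0 of 5 monocyte and macrophage markers and 0 of 9 T cell markers passed limma's test in any comparison. At an unadjusted p under 0.05 there were 1 or 2 monocyte and macrophage markers and 0 T cell markers per comparison. The median log2 difference of the monocyte and macrophage markers was 0.72 at day 7 against naive, 1.85 at day 28 against naive and 0.47 at day 28 against day 7. Over all probe sets it was 0.11, -0.05 and -0.16. T cell marker medians ran from -0.39 to 1.18 on naive arrays and from -0.80 to 1.43 at day 7, and were -0.57 and 0.18 at day 28. Ratios hold no true zero, so no marker could be called absent. In sorted bulk RNA, fewer cells of one type and less RNA per cell cannot be told apart.

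Bcl2l11, which encodes Bim, varied most of all members. Its probe set 1456005_a_at, whose suffix marks several transcripts of one gene, gave log2 ratios of 1.15, -2.84 and -3.86 in naive mice, 0.88, 2.35 and 1.0 in day 7 mice and -2.93 and -2.65 in day 28 mice. The day 7 arrays lay above both day 28 arrays, and naive replicate 1 lay among the day 7 arrays. Probe set 1435448_at had 0.83, -0.92 and -2.16 in naive mice, 1.04, 1.41 and 0.56 in day 7 mice and -1.17 and -1.15 in day 28 mice, so it put the arrays in the same 2 sets. The third tested probe set, 1456006_at, spanned less, with 0.36, -0.62 and -0.41 in naive mice, 0.95, 0.89 and -0.27 in day 7 mice and -0.06 and 0.06 in day 28 mice, and all groups overlapped.

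At day 28 against day 7, probe set 1456005_a_at differed by -4.20 ± 1.31 on the log2 scale (SE, 2 arrays against 3), which is 18.4-fold lower at day 28, with a limma adjusted p = 0.174. Probe set 1435448_at differed by -2.17 ± 0.77 (4.49-fold, limma adjusted p = 0.219), and 1456006_at by -0.52 ± 0.48 (limma adjusted p = 0.628). With only these 2 groups in the fit, whose spread no longer takes in the naive arrays, the first 2 passed at limma adjusted p = 0.0323 and 0.0414. Without naive replicate 1 they passed as well, at 0.0146 and 0.0390. In both cases the size of the difference was the same, since the day 7 and day 28 arrays had not changed.

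At day 7 against naive, the same probe sets differed by 3.25 ± 1.17 (9.54-fold higher, 3 arrays per group, limma adjusted p = 0.255) and 1.75 ± 0.69 (3.37-fold higher, limma adjusted p = 0.290), and the third by 0.74 ± 0.43 (limma adjusted p = 0.432). These values depended on which naive array was included. Without naive replicate 1 the differences were 4.75 (limma adjusted p = 0.0063) and 2.54 (limma adjusted p = 0.0161), and both passed. Without naive replicate 3 they were 2.25 (limma adjusted p = 0.560) and 1.05 (limma adjusted p = 0.584), and without naive replicate 2 they were 2.76 (limma adjusted p = 0.527) and 1.67 (limma adjusted p = 0.531). At day 28 against naive they were -0.95 ± 1.31 and -0.41 ± 0.77, with an adjusted p = 0.998 for each in limma. As a mean over its 3 tested probe sets, Bcl2l11 differed by 1.92 ± 0.70 at day 7 against naive (limma adjusted p = 0.232) and by -2.30 ± 0.79 at day 28 against day 7 (limma adjusted p = 0.198).

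**Figure D2:**
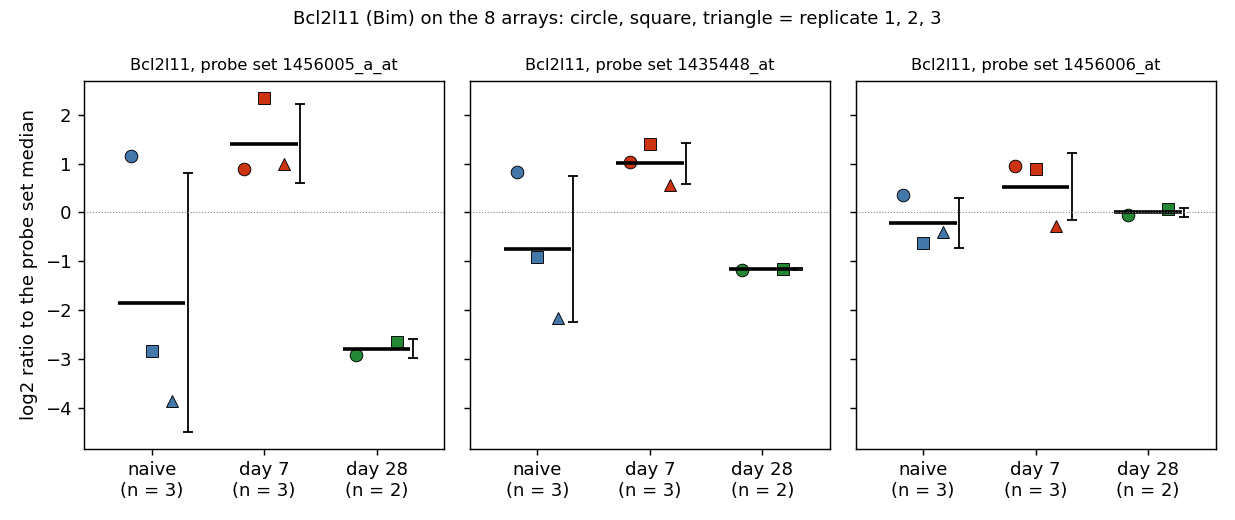
Log2 ratio (vertical axis) of the 3 tested Bcl2l11 probe sets on naive, day 7 and day 28 arrays; each symbol is an array, the horizontal line the group mean and the bar beside it 1 SD. Naive replicate 1 (circle) sits at 1.15 in the left panel, near the day 7 arrays, while naive replicates 2 and 3 sit at -2.84 and -3.86, near the day 28 arrays.

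For Bcl2l11 probe sets 1456005_a_at and 1435448_at, the division of the arrays was that of the spike-in controls. Probe set 1456006_at overlapped between the low and high sets. On the 4 low spike-in arrays 1456005_a_at ran from 0.88 to 2.35, and on the 4 high ones from -3.86 to -2.65. Within the low set, the day 7 arrays exceeded naive replicate 1 by 0.25 on the log2 scale for 1456005_a_at, 0.17 for 1435448_at and 0.16 for 1456006_at. Within the high set, the day 28 arrays exceeded naive replicates 2 and 3 by 0.55, 0.38 and 0.52. Day 28 and day 7 arrays share no set, so this comparison has no value inside one, and between these 2 groups the set and the stage cannot be told apart. With a term for the set in the fit, the difference of 1456005_a_at at day 28 against day 7 was 0.30 on the log2 scale. That term rests only on naive replicate 1 against naive replicates 2 and 3, so this value cannot separate the set from the stage. Of the 17 member probe sets, 4 were higher on every low than on every high spike-in array, namely these 2 of Bcl2l11, 1 of Bad and that of Bid, and 0 were lower; over all probe sets tested, 16.6% were higher and 5.80% lower. Proliferation markers, also high at day 7, had medians of -0.32, -0.79 and -1.04 in naive mice. Those of follicular helper markers, likewise high at day 7, were -0.92, -1.66 and -1.15 in naive mice. For both lists naive replicate 1 was the highest of the naive arrays, but it lay below every day 7 array. The part that the spike-in split and the cell type markers play in the Bcl2l11 values was not tested.

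The 2 dim probe sets of Bcl2l11, 1426334_a_at and 1435449_at, lay between -0.66 and -0.25 and between -1.03 and -0.88 over the 8 arrays. Probe set 1435449_at put the arrays in the same 2 sets without overlap, over a total range of 0.15 log2 units: -0.92 to -0.88 on the low spike-in arrays and -1.03 to -0.96 on the high ones. Probe set 1426334_a_at did not. The Affymetrix probe sequences were not used here, so the transcript parts that the 5 probe sets read were not compared.

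The start site of Bcl2l11 is shown because forkhead box O factors, among them Foxo1 and Foxo3, are known to drive Bim in cells deprived of survival cytokines, and both were measured on these arrays. The 250 bases upstream of its first RefSeq start (chr2:128125788-128126037, GRCm38.p6, plus strand) are given 5′ to 3′, with a match to GTAAACA, the forkhead box O motif, in capitals:
Bcl2l11: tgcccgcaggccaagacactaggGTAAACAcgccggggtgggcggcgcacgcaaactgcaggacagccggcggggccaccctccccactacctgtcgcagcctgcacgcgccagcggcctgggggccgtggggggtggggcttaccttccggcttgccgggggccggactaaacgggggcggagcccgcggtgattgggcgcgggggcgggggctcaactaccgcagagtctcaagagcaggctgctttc
The match begins 227 bases upstream of the start. Upstream of the second of 3 RefSeq starts of Bbc3, another gene known to answer to these factors, the motif lies on the opposite strand (chr7:16310084-16310110, GRCm38.p6, plus strand), shown with 10 bases on each side:
Bbc3: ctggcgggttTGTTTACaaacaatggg
On both strands, 3.17% of 32851 RefSeq promoter windows of this length hold this motif. Windows of all 10 members were found in the RefSeq table, 16 in all, and these 2 were the windows with the motif. The letters TTCNNNGAA (STAT factors, 7.02% of all windows), TTTCGCGC (E2F factors, 0.256%) and TGACGTCA (cyclic AMP response, 1.55%), searched on both strands, are not in the printed Bcl2l11 window. In the other member windows, the only match to these letters was that of E2F in 1 window of Bcl2l1, 145 bases upstream of its start. A match is a string of letters and no measure of binding.

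Foxo1, the forkhead factor that maintains naive T cells, gave log2 ratios of 0.51, 1.53 and 1.70 in naive mice, -0.80, -1.30 and -1.14 in day 7 mice and -0.93 and 0.80 in day 28 mice. All day 7 arrays lay below all naive arrays, with a difference of -2.33 ± 0.52 that did not pass (limma adjusted p = 0.0941). Foxo3 had 1.09, 0.08 and -0.35 in naive mice, -0.15, -0.19 and -0.08 in day 7 mice and 0.49 and 4.34 in day 28 mice, so its difference at day 28 against day 7 (2.56 ± 0.99, limma adjusted p = 0.257) rested on day 28 replicate 2. Bbc3 is described with the other BH3-only genes.

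Bcl2, the founding survival gene, was flat on 7 of 8 arrays. Its only probe set, 1422938_at, gave log2 ratios of 0.03, 0.13 and -0.10 in naive mice, -0.04, 1.41 and -0.03 in day 7 mice and -0.08 and 0.05 in day 28 mice. Day 7 replicate 2 alone stood out. The differences were 0.43 ± 0.42 at day 7 against naive (95% interval -0.55 to 1.41, limma adjusted p = 0.634), -0.03 ± 0.47 at day 28 against naive (-1.12 to 1.06, limma adjusted p = 0.998) and -0.46 ± 0.47 at day 28 against day 7 (-1.55 to 0.63, limma adjusted p = 0.662). Without day 7 replicate 2 the first became -0.05 and the third 0.02.

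Bcl2l1, which encodes Bcl-xL, an inducible survival protein of activated T cells, showed no stage pattern. Its tested probe set 1420888_at gave log2 ratios of -0.05, 0.12 and 0.87 in naive mice, -0.88, -0.25 and 0.22 in day 7 mice and 0.05 and -0.64 in day 28 mice. The groups overlapped, with -0.62 ± 0.41 at day 7 against naive (limma adjusted p = 0.490), -0.61 ± 0.46 at day 28 against naive (limma adjusted p = 0.995) and 0.01 ± 0.46 at day 28 against day 7 (limma adjusted p = 0.994). Its 3 other probe sets lay between -1.01 and -0.09 on every array. Bcl2l2, which encodes Bcl-w, varied little. Its tested probe set had 0.36, -0.08 and -0.15 in naive mice, 0.04, 0.02 and -0.02 in day 7 mice and 0.13 and -0.07 in day 28 mice. The 3 differences lay between -0.03 and 0.02, with 95% intervals inside -0.70 to 0.71.

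Mcl1, a short-lived survival protein that lymphocytes need at all stages, was read by 6 probe sets, which did not agree on an order of the stages. Naive replicate 1 was the highest or second highest array, and naive replicate 3 the lowest or second lowest, on all 6. Probe set 1448503_at, for example, gave 0.47, -1.71 and -2.68 in naive mice, -0.08, 0.41 and 0.07 in day 7 mice and 0.65 and -1.38 in day 28 mice. The 3 probe sets with the suffix _x_at, which marks probes that may read other transcripts too, spread over 1.79 to 2.11 log2 units in all but stayed between -0.38 and 0.17 at day 7. Probe set 1416880_at ran the other way from 1416881_at at day 28 against day 7. It differed by 1.15 ± 0.56 (1.27 and 0.11 at day 28, against 0.02, -1.10 and -0.29 at day 7, limma adjusted p = 0.363), and 1416881_at by -1.01 ± 0.60 (0.00 and -1.76 at day 28, against 0.00, 0.08 and 0.31 at day 7, limma adjusted p = 0.451). Without naive replicate 1, 1448503_at differed by 2.33 at day 7 against naive (limma adjusted p = 0.0512), and without naive replicate 3 by 0.76 (limma adjusted p = 0.783), where with all arrays the difference was 1.44 ± 0.83 (limma adjusted p = 0.432). As a mean over the 6 probe sets, Mcl1 gave log2 ratios of 0.83, -0.42 and -1.12 in naive mice, -0.07, -0.08 and 0.04 in day 7 mice and 0.53 and -0.54 in day 28 mice. The day 7 values lay close together, inside the range of the naive arrays. The differences of these means were 0.20 ± 0.51 at day 7 against naive (limma adjusted p = 0.861), 0.23 ± 0.57 at day 28 against naive (limma adjusted p = 0.998) and 0.03 ± 0.57 at day 28 against day 7 (limma adjusted p = 0.979).

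Bak1, the pore-forming effector that could be read here, stayed near its floor. Probe set 1418991_at gave log2 ratios of -0.26, -0.20 and -0.45 in naive mice, 0.07, -0.12 and 0.37 in day 7 mice and -0.26 and -0.23 in day 28 mice. The day 7 arrays lay above all others, by 0.41 ± 0.26 against naive (1.33-fold, limma adjusted p = 0.475), and the day 28 arrays lay 0.35 ± 0.29 below day 7 (log2 difference -0.35, limma adjusted p = 0.593). This probe set passed the filter only through 2 day 7 arrays, so the filter partly set this order. The other probe set, 1425716_s_at, lay between -1.0 and -0.77 throughout, and its suffix marks probes shared with transcripts of other genes.

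Bad, a BH3-only protein that growth factor signals silence by phosphorylation, had the smallest adjusted p of all members. Its probe set 1416582_a_at gave log2 ratios of 0.05, -0.56 and -0.05 in naive mice, 0.11, 0.40 and 0.44 in day 7 mice and -0.77 and -0.68 in day 28 mice. Both day 28 arrays lay below all naive and all day 7 arrays, and all day 7 arrays lay above all naive arrays. The difference was -1.04 ± 0.32 at day 28 against day 7 (2.06-fold lower, unadjusted p = 0.0113, limma adjusted p = 0.166), -0.54 ± 0.32 at day 28 against naive (limma adjusted p = 0.935) and 0.50 ± 0.28 at day 7 against naive (limma adjusted p = 0.421). Inside the low spike-in set, day 7 exceeded naive by 0.27, and inside the high set day 28 lay below naive (log2 difference -0.42). The second probe set, 1416583_at, had -0.12 and -0.63 at day 28, against 0.02, -0.02 and 0.32 on the naive arrays; these did not overlap, but day 7, with 0.50, -0.32 and 0.24, overlapped both. Its difference was -0.48 ± 0.36 at day 28 against naive (limma adjusted p = 0.993), -0.52 ± 0.36 at day 28 against day 7 (limma adjusted p = 0.519) and 0.03 ± 0.32 at day 7 against naive (limma adjusted p = 0.968), the last turning to -0.10 with each array centred on its median and -0.17 with quantile normalization.

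Bid, which carries the signal of death receptors to mitochondria after caspase 8 cuts it, gave log2 ratios of 0.01, -0.12 and -0.04 in naive mice, 0.38, 0.33 and 0.01 in day 7 mice and -0.01 and -0.09 in day 28 mice. The day 7 arrays lay above the others, day 7 replicate 3 by the least, with 0.29 ± 0.25 against naive (1.22-fold, limma adjusted p = 0.590) and, at day 28 against day 7, -0.29 ± 0.28 (limma adjusted p = 0.647). At day 28 against naive the difference was 0.00 on the log2 scale, with a 95% interval of -0.65 to 0.65. These values are of probe set 1417045_at, which was higher on every low than on every high spike-in array. Inside the low set day 7 exceeded naive by 0.23, and inside the high set day 28 exceeded naive by 0.03. The dim probe set of Bid, 1448560_at, lay between -0.85 and -0.27 on all arrays. Fitted without the filter, it differed by -0.09 at day 7 against naive. Bbc3, which encodes the p53 target Puma, had -0.25, 0.52 and 2.49 in naive mice, -0.23, 0.15 and -0.25 in day 7 mice and 0.15 and -0.16 in day 28 mice. Naive replicate 3 alone stood out. The difference at day 7 against naive was -1.03 ± 0.64 (limma adjusted p = 0.462), or -0.25 without that array, and at day 28 against naive -0.93 ± 0.72 (limma adjusted p = 0.995), or -0.14 without it.

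**Figure D3:**
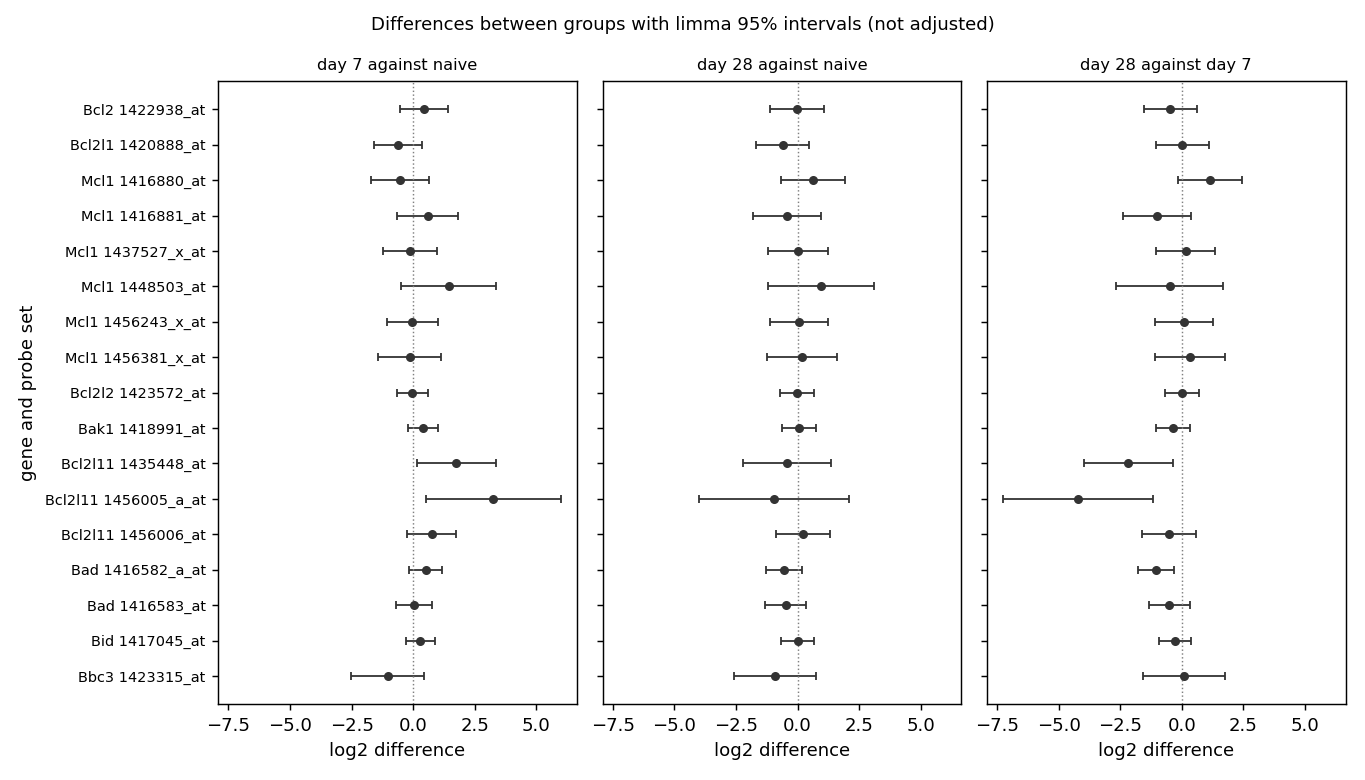
Log2 differences (horizontal axis) of the 17 tested member probe sets in the 3 comparisons, with limma 95% intervals that are not adjusted for the number of tests. The intervals of 2 Bcl2l11 probe sets lie above 0 at day 7 against naive and below 0 at day 28 against day 7, with that of Bad 1416582_a_at also below 0 at day 28 against day 7; none of these passed the adjusted test.

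Over the 17 probe sets, the median log2 difference was 0.29 at day 7 against naive, where it was 0.11 over all probe sets tested, -0.01 at day 28 against naive (all probe sets, -0.05) and -0.35 at day 28 against day 7 (all probe sets, -0.16). The 7 tested BH3-only probe sets had medians of 0.05, -0.56 and -0.05 in naive mice, 0.50, 0.40 and 0.24 in day 7 mice and -0.12 and -0.63 in day 28 mice, and 3 of them belong to Bcl2l11. The 9 survival probe sets had medians of 0.47, -0.05 and -0.77 in naive mice, -0.03, 0.02 and 0.05 in day 7 mice and 0.27 and -0.07 in day 28 mice, and 6 of them belong to Mcl1. Without overlap between groups, 3 member probe sets were higher at day 7 than in naive arrays and 0 lower (background 13.4% higher, 8.61% lower and 22.1% in all), 0 were higher and 2 lower at day 28 than in naive arrays (background 7.76% higher, 9.88% lower and 17.6% in all), and 1 was higher and 5 lower at day 28 than at day 7 (background 15.2% higher, 29.7% lower and 44.9% in all). Among the 3 higher at day 7 and the 5 lower at day 28 is Bak1 1418991_at, which passed the filter only through day 7 arrays. The filter therefore partly set its place in these counts. Bid, also among both, had 0.01 on day 7 replicate 3, 0.01 on naive replicate 1 and -0.01 on day 28 replicate 1. The members' shares in all were 17.6%, 11.8% and 35.3%, and their difference from those of all probe sets was not tested.

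**Figure D4:**
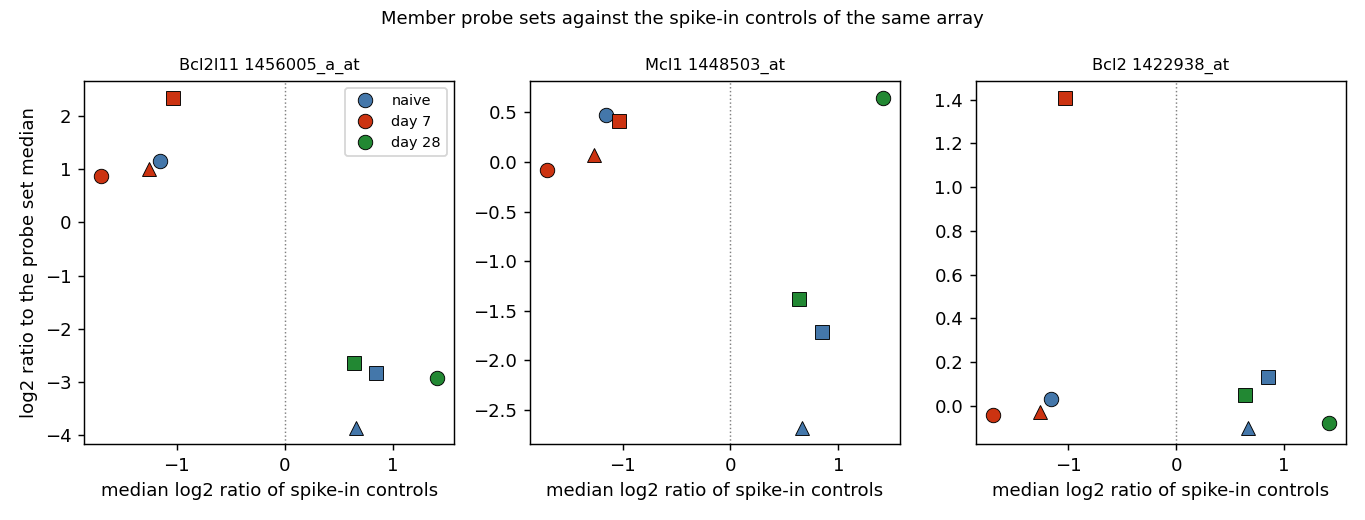
Log2 ratio of 1 probe set each of Bcl2l11, Mcl1 and Bcl2 (vertical axes) against the median log2 ratio of the spike-in controls on the same array (horizontal axes); colours give the stage and circle, square and triangle replicates 1, 2 and 3. The 4 arrays left of the dotted line lie above the 4 to its right for Bcl2l11, whereas for Mcl1 day 28 replicate 1, at 0.65, and for Bcl2 day 7 replicate 2, at 1.41, break such an order.

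The genes most like 3 members over the 8 arrays were named by Pearson's r, as a description. For Bcl2 they were Septin11 (r = 0.983), Mycn (0.981) and Cenph (0.968), which all shared its single high array, day 7 replicate 2. For Bcl2l11 probe set 1456005_a_at they were Erap1 (r = 0.995), Zfyve21 (0.994) and Gdap2 (0.993); Erap1 had 0.64, -1.47 and -1.62 in naive mice, 0.69, 1.26 and 0.65 in day 7 mice and -1.16 and -1.23 in day 28 mice. For Mcl1 probe set 1448503_at they were Ranbp2 (r = 0.993), 2410004B18Rik (0.992) and Tbk1 (0.989). The arrays fall into separate sets by spike-in signal, and for Bcl2l11 probe set 1456005_a_at, Erap1, Zfyve21 and Gdap2 the sets did not overlap.

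Further genes of the pathway were taken from 3 lists chosen with the comparisons. The shares of all probe sets tested with an unadjusted p under 0.05 (15.5% at day 7 against naive, 6.34% at day 28 against naive and 16.5% at day 28 against day 7) are the background of the counts below. Of 14 other Bcl2 family genes, 9 were on the array and 6 were tested, and 0 passed limma's test in any comparison. At an unadjusted p under 0.05, 1 was higher at day 7 against naive (Bnip3, a mitochondrial protein induced by low oxygen, 1.37 ± 0.54, limma adjusted p = 0.293), 2 were higher at day 28 against naive, and 1 was higher and 1 lower at day 28 against day 7. The list's median log2 difference was 0.25, 0.00 and -0.13 in these comparisons, where it was 0.11, -0.05 and -0.16 over all probe sets. Bnip3 was higher on every low than on every high spike-in array; within the low set, day 7 exceeded naive by 0.33, and within the high set day 28 exceeded naive by 0.35. Bok, a Bax-like gene, had 0.57 and 0.90 at day 28, against 0.01, -0.01 and -0.41 at day 7 and 0.01, -0.03 and -0.17 on naive arrays, with differences of 0.87 ± 0.30 (limma adjusted p = 0.205) and 0.80 ± 0.30 (limma adjusted p = 0.691). Bcl2l14 differed by 0.88 ± 0.35 at day 28 against naive (limma adjusted p = 0.730). The day 28 arrays were also those with high B cell and CD8 T cell markers. The part of these markers in the Bok and Bcl2l14 values was not tested. Pmaip1, which encodes Noxa, the partner of Mcl1, differed by 0.76 ± 0.45 at day 7 against naive (limma adjusted p = 0.444).

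Downstream of the mitochondrion, 0 of 12 genes tested passed limma's test in any comparison, and at an unadjusted p under 0.05 3 were higher at day 7 against naive, 1 was higher at day 28 against naive, and 2 were higher and 2 lower at day 28 against day 7. The list's median log2 difference was 0.66 at day 7 against naive, 0.51 at day 28 against naive and -0.34 at day 28 against day 7, where it was 0.11, -0.05 and -0.16 over all probe sets. Apaf1, the scaffold of the apoptosome, stood at 1.18, 0.24 and 0.55 at day 7, against -0.08, -1.31 and -0.75 in naive mice, without overlap (1.37 ± 0.41, limma adjusted p = 0.179). Cycs, which encodes the cytochrome c that Bax and Bak1 release, differed by 2.41 ± 0.92 at day 7 against naive (limma adjusted p = 0.278), and Aifm1, another mitochondrial protein, by 1.5 ± 0.44 (limma adjusted p = 0.173) and, at day 28 against day 7, by -1.96 ± 0.49 (limma adjusted p = 0.112). Diablo, which relieves the inhibitors of apoptosis, differed by -1.26 ± 0.48 at day 28 against day 7 (limma adjusted p = 0.252) and Htra2, a mitochondrial protease, by 1.57 ± 0.66 (limma adjusted p = 0.291). Cycs, Aifm1 and Diablo, 3 of the 12 genes, were higher on every low than on every high spike-in array, with naive replicate 1 on the day 7 side, and 0 were lower. Over all probe sets tested, 16.6% were higher and 5.80% lower. Within the low set, day 7 minus naive was 0.65 for Cycs, 0.58 for Aifm1 and -0.09 for Diablo. Within the high set, day 28 minus naive was 1.14 for Cycs, 0.002 for Aifm1 and -0.21 for Diablo. The part of the spike-in split in these values was not tested. Birc3, an inhibitor of apoptosis induced by NF-kB, had 1.16 and 0.88 at day 28, against 0.02, -0.60 and 0.23 at day 7 and -0.02, -0.33 and -0.09 on naive arrays (1.14 ± 0.34, limma adjusted p = 0.165, and 1.17 ± 0.34, limma adjusted p = 0.480). These day 28 arrays were also those with high B cell and CD8 T cell markers, and the part of these markers in the Birc3 values was not tested.

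Upstream, 0 of 14 genes for survival and stress inputs passed limma's test in any comparison. At an unadjusted p under 0.05, 2 were lower at day 7 against naive (Foxo1 and Il7r), 1 was lower at day 28 against naive (Il7r), and 1 was higher (Foxo3) and 2 lower (Fasl and Stat5b) at day 28 against day 7. The list's median log2 difference was 0.00, -0.26 and 0.00 in these comparisons, where all probe sets had 0.11, -0.05 and -0.16. Il7r, the receptor chain through which interleukin 7 sustains Bcl2, had -0.48, -0.82 and -0.23 at day 7, against 2.70, 2.59 and 0.63 on naive arrays (-2.48 ± 0.56, limma adjusted p = 0.103). At day 28 it had 0.20 and -0.40, also below every naive value (-2.07 ± 0.63, limma adjusted p = 0.510). Fasl, the death ligand, differed by -1.73 ± 0.62 at day 28 against day 7 (limma adjusted p = 0.224). It had 1.03 on naive replicate 1, -0.97 and -1.06 on naive replicates 2 and 3, 0.55, 0.78 and 1.09 at day 7, and -0.91 and -0.93 at day 28. This is the same division of arrays as for Bcl2l11 probe sets 1456005_a_at and 1435448_at. Over the 14 genes, 3 were higher on every low than on every high spike-in array (Fasl, Pim2 and Ywhaz) and 1 was lower (Il4ra). The background over all probe sets tested was 16.6% higher and 5.80% lower. Pim2 and Ywhaz were named after their values were seen.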

How the data were processed

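The authors deposited 1 linear ratio per probe set and array, without missing values. GCRMA, a background correction and summary of probes, is credited to the submitters' processing notes, which give it no version. That ratios are to a probe set's median, or to a floor if dimmer, was inferred: 47.9% of the 22690 medians equal 1 (within 0.0015) and none is above it. The genome build and the scan dates are not given in the sources used here. Of 22626 probe sets without controls, 20380 carried 1 gene symbol, 691 several and 1555 none; members needed 1 symbol.

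Log2 ratios, with no pseudocount, were fitted with limma 3.58.1 in R 4.3.3, with 1 mean per group over all 8 arrays and empirical Bayes moderation. Probe sets whose ratio reached 1 on 2 or more arrays, 13042 in number, were tested, two-sided, with Benjamini-Hochberg adjustment over all of them and a threshold of 0.05. The code was tested on simulated data. A gene of a list was represented by its tested probe set with the highest median and then the largest SD over these arrays, which favours those that varied most. Named genes were all members, list genes from among the 4 smallest adjusted p of each comparison, and the 3 nearest patterns of Bcl2, Bcl2l11 and Mcl1. Members, lists and tests were chosen with earlier results of these data known. The motifs were chosen after the member values were seen. Replicate numbers were not used as a block: the deviations of same-numbered arrays correlated at -0.234, -0.365 and 0.1 between naive and day 7, 0.115 and 0.125 between naive and day 28, and 0.171 and 0.0935 between day 7 and day 28, so not every pair was above 0.1, and no label pairs them. The number of arrays limits the precision.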

Additional observations from a re-analysis of the deposited data

How the results depend on the processing

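The 9 analysed members rest on 2 or 3 arrays per group and Bcl2l11 calls depended on the naive arrays included. Member probe sets called were 0 in every comparison under no filter, the stricter filter (median of 1, 16 member probe sets), median centring, quantile normalization, a trended robust variance, the replicate block, the spike-in term and gene means; limma gave 0 to 4 member probe sets or genes at an unadjusted p under 0.05. The exception was the fit of only the 2 groups compared, with 2 called at day 28 against day 7. Leaving out each array gave 0 to 2 at day 7 against naive, 0 to 0 at day 28 against naive and 0 to 2 at day 28 against day 7; the 2 were Bcl2l11 probe sets, without naive replicate 1. Where 1 day 28 array is left, it is assumed to vary like the other groups. Of 840 member values under an alternative, 63 changed sign while neither value passed, and 0 did so with either passing. With the spike-in term, Bcl2l11 1456005_a_at had 0.25 at day 7 against naive, 0.55 at day 28 against naive and 0.30 at day 28 against day 7, Mcl1 1448503_at had -0.33 at day 7 against naive and 2.16 at day 28 against day 7, and Bbc3 had 0.14 and -1.65. The spike-in term rests on the naive arrays alone, so at day 28 against day 7 it cannot separate the set from the stage. The cause of these values was not tested.

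Over all probe sets, the 152 calls at day 7 against naive became 94 with no filter, 76 with the stricter filter, 54 with trended and robust variance, 68 with only the 2 groups, 16 with the replicate block and 14 with the spike-in term (17 to 1727 leaving out each array). The 42 at day 28 against naive became 26 with the stricter filter, 19 with trended and robust variance, 9 with the replicate block and 0 with only the 2 groups, where limma gave 613 at an unadjusted p under 0.05 (2 to 57 leaving out each array). The 170 at day 28 against day 7 became 62, 52, 15 and 591 under these 4 settings, 257 with quantile normalization and 0 with the spike-in term, where limma gave 1402 at an unadjusted p under 0.05 (25 to 810 leaving out each array). The highest counts came without naive replicate 1.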
